A study of Sus scrofa with 72 samples.

Results

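Synovial mesenchymal stem cells (SMSCs) of Angeln Saddleback (AS) pigs, a breed that deposits much fat, were compared with those of German Landrace (DL) pigs, a lean breed, on day 0, before any adipogenic stimulus was given. The comparison used the arrays titled D0 that carry no medium code, 7 of the 72 arrays of the series. These were 4 AS arrays, with 2 of adipose synovial tissue (FP, the fat pad side of the knee synovium) and 2 of fibrous synovium (FS), and 3 DL arrays, with 1 of FP and 2 of FS. One more day 0 array was deposited, which makes 8 in all, but the label of this DL FP array (replicate 2) disagrees with the sample tables of the study and it was left out. The remaining arrays of the series were of the same cells after 1, 4, 7 and 14 days in adipogenic induction medium (AIM) or in complete culture medium (CCM), and they supplied the spread between cultures and a second look at the breed difference.

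All day 0 cells of both breeds had been grown in CCM and had received no inducer. Each combination of breed and tissue was a single pool of low-passage cells from young male piglets, and the replicates were cultures of that pool. P-values therefore measure the spread between cultures, and breed cannot be told apart from the pool of animals that stands for it. Signals were log2 intensities on a porcine expression array, on which a difference of 1 is a doubling. The array medians were alike, between 3.98 and 4.03 on day 0, and the array's own background controls averaged between 3.13 and 3.36. A probe set passed when its Benjamini-Hochberg adjusted limma p was under 0.01, and the breed difference is AS minus DL, averaged with equal weight over FP and FS.

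SMSCs are adherent stromal cells of the joint lining that can form fat, cartilage and bone in culture. Their commitment to fat is set in motion by hormones that act through cAMP, glucocorticoid and insulin signals on transcription factors such as C/EBPs and PPARG. Before that step they resemble fibroblasts, and much of what distinguishes stromal populations lies in surface receptors, in the matrix they secrete and in the kinases behind those receptors.

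On day 0, 164 of 18335 probe sets differed between the breeds, which is 0.894% of those tested. Of these, 42 (0.229%) were higher in AS and 122 (0.665%) were lower in AS. Counted by 1 probe set per gene, 71 of 7489 genes passed (0.948%), with 18 higher (0.24%) and 53 lower (0.708%) in AS. The differences of the 164 probe sets ran from 0.44 to 3.14 in size with a median of 0.98 and a median SE of 0.18, and 78 of them exceeded 1, which were 23 higher and 55 lower in AS. Over all tested genes the median size of the breed difference was 0.14, so most genes differed little. Without the only DL FP array the count was 73, all of it then resting on FS, and without the second AS FS array it was 100. Of 24 leading genes, the 12 furthest above and the 12 furthest below DL in AS, 11 kept their call with 1 value per pool and 6 with the 7 day 0 arrays alone. The other 13 lost theirs in both of these fits, as did LUM. Lower in AS among the 13 were ND5 and PDE1C. Higher in AS were PLCXD3, SLIT3, GRIN3A, WDR17, PRKAR2B, CEMIP, DLGAP2, ZSCAN4, HUS1, TLL1 and CELA2A. EIF4H alone of the 12 leading genes higher in AS kept its call in both. With all 72 arrays under their deposited labels 7 leading genes lost theirs, namely KIT, SLIT3, GRIN3A, PRKAR2B, CEMIP, DLGAP2 and HUS1.

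All 164 probe sets had the same sign in FP and in FS, against 55.7% of all probe sets tested. In 152 of the 164 the AS and DL arrays did not overlap at all, beside 11% of all tested probe sets (2011). The 164 were chosen by their mean difference over these same arrays. Both counts therefore follow largely from that choice and are no independent support for the calls. The called probe sets carried 105 gene names, and 40 of them had no name and are reported only in the counts. Since RNA was taken from whole cultures, fewer cells of a type and less RNA per cell cannot be told apart in any of these values.

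**Figure D1:**
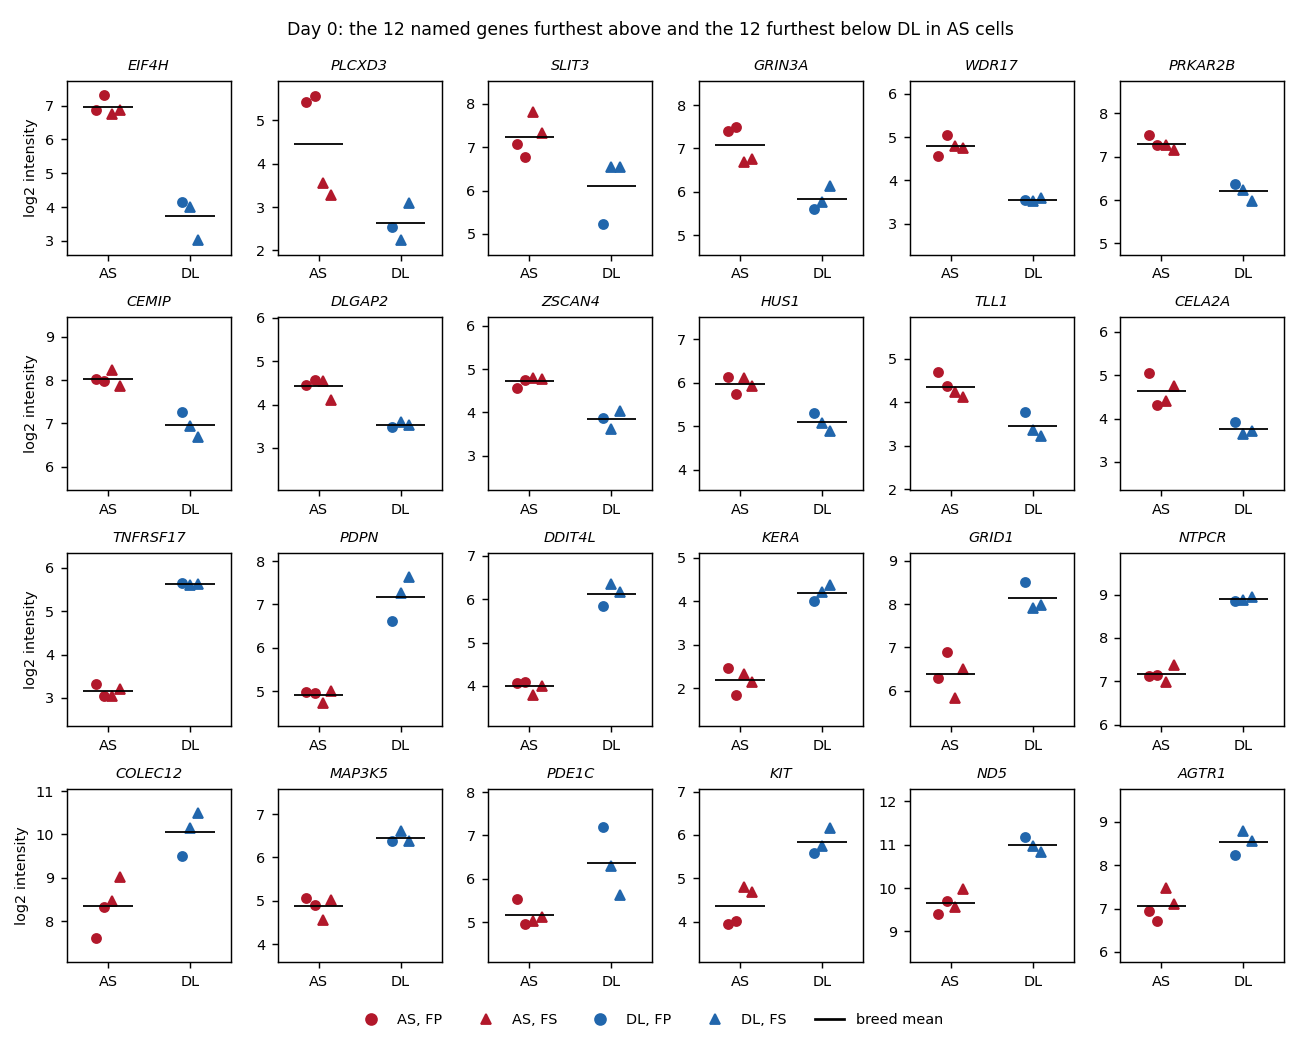
Log2 intensity (vertical axis) on the AS arrays (left, red) and the DL arrays (right, blue) for the 12 named genes furthest above and the 12 furthest below DL in AS cells, with circles for FP, triangles for FS and lines for the breed mean. AS and DL arrays do not overlap in any of the 24 panels, and PLCXD3 shows its high values on the AS FP arrays (5.42 and 5.57).

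Among surface receptors, TNFRSF17, known as the B-cell maturation antigen that binds the survival factors BAFF and APRIL on plasma cells, stood furthest below DL in AS among the leading genes. Its log2 intensities were 3.32 and 3.04 in AS FP and 3.05 and 3.21 in AS FS, against 5.65 in DL FP and 5.62 and 5.63 in DL FS. The AS arrays lay at the level of the background controls and the DL arrays well above them, with a spread between DL arrays of 0.018 (SD, n = 3). The difference was -2.48 ± 0.18 (SE, adjusted p = 1.062e-11), and with AS raised to the background controls it was -2.34, a lower bound on its size. TNFRSF17 was one of 5 leading genes, with PDPN, DDIT4L, KERA and NTPCR, that passed under every alternative in which they were tested; other filters on low signals left out TNFRSF17, DDIT4L and KERA.

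Podoplanin (PDPN), a mucin-type membrane glycoprotein of stromal fibroblasts and lymphatic endothelium that marks the synovial lining, was 4.33-fold lower in AS. It read 4.98 and 4.95 in AS FP and 4.74 and 5.00 in AS FS, against 6.61 in DL FP and 7.26 and 7.64 in DL FS (difference -2.11 ± 0.20, adjusted p = 7.907e-09). The lowest DL array stood above the highest AS array by more than the whole range of the AS arrays. PDPN was the only gene to pass both in the list of mesenchymal stromal surface markers and in that of synovial lining fibroblast genes.

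KIT, the receptor tyrosine kinase for stem cell factor, was also lower in AS. Values were 3.95 and 4.02 in AS FP and 4.80 and 4.69 in AS FS, against 5.59 in DL FP and 5.75 and 6.17 in DL FS (difference -1.42 ± 0.21, adjusted p = 3.839e-05). The AS FS arrays were above the AS FP arrays, yet below every DL array. Of 4 KIT probe sets 2 passed, and all 4 differences were below 0, between -0.83 (with AS arrays below the background controls) and -1.42. Without the DL FP array KIT no longer passed (-1.22, adjusted p = 0.0135).

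AGTR1, the type 1 receptor for angiotensin II, had 6.95 and 6.72 in AS FP and 7.48 and 7.11 in AS FS, against 8.24 in DL FP and 8.80 and 8.56 in DL FS (difference -1.39 ± 0.22, adjusted p = 8.705e-05). GRID1, a delta-type glutamate receptor subunit, was 6.30 and 6.89 in AS FP and 5.84 and 6.51 in AS FS, against 8.52 in DL FP and 7.91 and 7.97 in DL FS (difference -1.85 ± 0.21, adjusted p = 3.012e-07). Both genes kept the breeds apart on every array. The opposite held for GRIN3A, a subunit of NMDA-type glutamate receptors, which was higher in AS with 7.40 and 7.50 in FP and 6.69 and 6.76 in FS, against 5.61 in DL FP and 5.76 and 6.14 in DL FS (difference 1.30 ± 0.19, adjusted p = 2.533e-05). Its other tested probe set also passed, at 1.46. The call of GRIN3A was lost without the DL FP array (0.77, adjusted p = 0.130).

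COLEC12, a scavenger receptor of the collectin family that takes up modified lipoproteins and microbial sugars, was lower in AS. It read 7.61 and 8.32 in AS FP and 8.46 and 9.02 in AS FS, against 9.51 in DL FP and 10.15 and 10.49 in DL FS (difference -1.57 ± 0.18, adjusted p = 4.332e-07). Of its other 2 probe sets, 1 passed at -1.30 and the other stood at -0.03. Other receptors and surface proteins below DL in AS were the adenosine receptor ADORA2B (-0.66), the lysophosphatidic acid receptor LPAR6 (-0.79), the adhesion protein CNTN3 (-0.75, lost without the first AS FP, first AS FS, DL FP or second DL FS array) and the fibronectin leucine-rich protein FLRT3, with both called probe sets at -0.83 and -0.87. The histamine receptor HRH1 was higher in AS, at 0.70.

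Secreted ligands and matrix proteins went in both directions. SLIT3, a secreted guidance protein that binds ROBO receptors, read 7.08 and 6.77 in AS FP and 7.82 and 7.32 in AS FS, against 5.24 in DL FP and 6.54 and 6.54 in DL FS (difference 1.36 ± 0.20, adjusted p = 3.407e-05). The DL FP array was the lowest by over 1 log2 unit, and without it the difference was 1.02 and did not pass (adjusted p = 0.0384). CEMIP, which takes part in the breakdown of hyaluronan, was higher in AS (mean 8.03 ± 0.15, n = 4) than in DL (6.96 ± 0.29, n = 3, SD), with a difference of 0.99 and an adjusted p of 0.00686 that missed the threshold whenever any 1 of the 7 arrays was left out (0.0131 to 0.0321). TLL1, a tolloid-like metalloproteinase that trims procollagens, was higher in AS by 0.83 ± 0.15 (adjusted p = 7.207e-04), and just missed the threshold without the DL FP array.

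The small leucine-rich keratan sulphate proteoglycans lumican (LUM) and keratocan (KERA), which organise collagen fibrils, were both lower in AS. LUM had a mean of 10.92 ± 0.40 in AS (n = 4) and 12.03 ± 0.17 in DL (n = 3, SD), and the highest AS array (11.41) lay below the lowest DL array (11.84). Its difference was -1.13 ± 0.15 (adjusted p = 4.946e-06). KERA had 2.45 and 1.85 in AS FP and 2.33 and 2.13 in AS FS, against 4.00 in DL FP and 4.22 and 4.38 in DL FS (difference -1.96 ± 0.25, adjusted p = 3.159e-06).

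KERA was thus not above the background controls on AS arrays, and with AS raised to those controls its difference was -0.85, a lower bound on its size. LUM and KERA are direct neighbours in the RefSeq gene order of Sscrofa11.1. Among 102 called genes that could be placed on that map, 10 pairs lay within 10 genes of each other, and 5 of these pairs had the same direction. Besides LUM and KERA these were OSBPL3 with MPP6, CST3 with APMAP, MAP3K5 with SLC2A12, and TLL1 with KLHL2. How many such pairs all tested genes would give was not counted, so no grouping along the genome is read from them.

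Further matrix and secreted factors below DL in AS were chondroadherin (CHAD), a leucine-rich cartilage protein (-1.09 ± 0.15, adjusted p = 4.946e-06), IGFBP2, which binds insulin-like growth factors (-1.07 ± 0.17, adjusted p = 1.025e-04), and the eosinophil chemokine CCL11 (-1.14 ± 0.25, adjusted p = 0.00659). For CHAD the DL FP array was the furthest from AS, with a difference of -1.50 in FP and -0.69 in FS, and IGFBP2 had -1.50 in FP and -0.64 in FS. Neither passed without the DL FP array (adjusted p = 0.0645 for CHAD and 0.183 for IGFBP2). With the replicate number of the day 0 arrays as a further block, CCL11 no longer passed (adjusted p = 0.0191), and it passed only without the first AS FS or the second DL FS array when arrays were left out singly (0.0181 to 0.0856 without the others). A second IGFBP2 probe set was at -0.45 and did not pass. Gelsolin (GSN), which severs and caps actin filaments and also circulates in plasma, was lower in AS in all 3 of its probe sets, at -0.90, -0.97 and -1.23.

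Among intracellular signalling genes, MAP3K5, the stress kinase ASK1 that feeds JNK and p38, read 5.06 and 4.90 in AS FP and 4.55 and 5.03 in AS FS, against 6.38 in DL FP and 6.61 and 6.37 in DL FS (difference -1.55 ± 0.17, adjusted p = 1.031e-07). All 3 MAP3K5 probe sets passed, between -1.37 and -1.67, where the first is -0.92 with AS raised to the background controls, a lower bound on its size. DDIT4L, a stress-induced inhibitor of mTOR signalling, had 4.07 and 4.10 in AS FP and 3.79 and 4.00 in AS FS, against 5.83 in DL FP and 6.34 and 6.17 in DL FS (difference -2.04 ± 0.30, adjusted p = 2.119e-05). The AS arrays of DDIT4L lay close together and all below DL.

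The regulatory subunit PRKAR2B of cAMP-dependent protein kinase, an abundant form in fat tissue, was higher in AS. It read 7.50 and 7.26 in AS FP and 7.28 and 7.15 in AS FS, against 6.38 in DL FP and 6.23 and 5.99 in DL FS (difference 1.05 ± 0.14, adjusted p = 4.826e-06). The difference was 0.99 in FP and 1.11 in FS. A second PRKAR2B probe set was at -0.001 ± 0.159 and did not pass. PDE1C, a calmodulin-activated phosphodiesterase that degrades cyclic nucleotides, was lower in AS (-1.42 ± 0.30, adjusted p = 0.00534), but its DL arrays were spread widely, with 7.19 in DL FP and 6.30 and 5.63 in DL FS. PDE1C lost its call with the replicate number of the day 0 arrays as a further block (adjusted p = 0.0149) and without the DL FP array (-0.89, adjusted p = 0.362) or any of 4 others (0.0141 to 0.0447), namely the second AS FP, both AS FS and the first DL FS arrays.

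Of enzymes, NTPCR, a nucleoside triphosphatase, shared the smallest adjusted p with TNFRSF17. It had 7.13 and 7.15 in AS FP and 6.99 and 7.37 in AS FS, against 8.85 in DL FP and 8.88 and 8.93 in DL FS (difference -1.72 ± 0.13, adjusted p = 1.062e-11). DL arrays differed from each other by less than 0.1 log2 units. ND5, a mitochondrially encoded subunit of respiratory complex I, was lower in AS with means of 9.65 ± 0.25 (n = 4) in AS and 11.00 ± 0.18 (n = 3, SD) in DL (difference -1.39, adjusted p = 4e-06). PCCB, the beta subunit of propionyl-CoA carboxylase, and NUDT7, a peroxisomal CoA diphosphatase, were lower in AS in every tested probe set, at -0.60 and -0.85 for PCCB and at -0.89 and -1.33 for NUDT7. The retinaldehyde dehydrogenase ALDH1A3 was higher in AS by 0.74 ± 0.14 (adjusted p = 0.00115), but did not pass without the DL FP array (adjusted p = 0.159) or the first DL FS array (0.0195).

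The largest difference of all called probe sets was that of EIF4H, a translation initiation factor that stimulates the helicase eIF4A. It read 6.88 and 7.30 in AS FP and 6.76 and 6.88 in AS FS, against 4.14 in DL FP and 4.01 and 3.02 in DL FS (difference 3.14 ± 0.57, adjusted p = 8.299e-04). The DL arrays lay close to the background controls, 1 of them below. The DL mean of each tissue was above those controls, so raising means to them left the difference unchanged and gave no lower bound. Although the breeds were far apart on all arrays, the SE was the widest among the leading genes, and without the DL FP array the adjusted p was 0.0130. EIF4H had a single tested probe set.

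The remaining leading genes above DL in AS were PLCXD3, WDR17, DLGAP2, HUS1, CELA2A and ZSCAN4. PLCXD3, which has a phospholipase C X domain, had 5.42 and 5.57 in AS FP and 3.57 and 3.27 in AS FS, against 2.54 in DL FP and 2.25 and 3.10 in DL FS. Its difference was 1.84 ± 0.37 (adjusted p = 0.00282), it was 2.94 in FP and 0.75 in FS, and since DL lay below the background controls it was at least 1.27 with DL raised to them. The interaction of breed and tissue for PLCXD3 did not pass (2.19 ± 0.74, adjusted p = 0.843), and its breed difference without the DL FP array was 0.75 (adjusted p = 0.639). PLCXD3 also lost its call without the second AS FP, the first AS FS or the first DL FS array (0.0134 to 0.0287). WDR17, a WD repeat protein, was 4.55 and 5.05 in AS FP and 4.78 and 4.76 in AS FS, against 3.54 in DL FP and 3.53 and 3.60 in DL FS (difference 1.23 ± 0.19, adjusted p = 5.559e-05).

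DLGAP2, a postsynaptic scaffold protein, was higher in AS by 0.90 ± 0.16 (adjusted p = 7.296e-04), HUS1, a subunit of the DNA damage checkpoint clamp, by 0.84 ± 0.18 (adjusted p = 0.00400), and CELA2A, a pancreatic elastase, by 0.82 ± 0.16 (adjusted p = 0.00140). HUS1 had 3 tested probe sets, with the others at 0.38 and -0.16, and a further CELA2A probe set was at 0.27. None of these others passed. ZSCAN4, a zinc finger protein known from early mouse embryos, differed by 0.87 ± 0.19 (adjusted p = 0.00533, and 0.0145 with the replicate number of the day 0 arrays as a further block). The called probe sets of DLGAP2, HUS1, CELA2A and ZSCAN4 did not overlap between the breeds on any array, but each lost its call without at least 1 of the 7 arrays. DLGAP2 did so without the DL FP array (adjusted p = 0.0645), and CELA2A without the first AS FP, the second AS FS or the DL FP array (0.0135 to 0.0233). HUS1 missed the threshold without the first AS FP, the first AS FS or the second DL FS array (0.0196 to 0.0311), and ZSCAN4 without any array other than the second DL FS array (0.0103 to 0.0442).

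Whether a gene was called depended in part on the probe set. Of the called genes, 54 had more than 1 tested probe set, 9 of them passed in every probe set and 38 in a single one, while no gene had probe sets passing in opposite directions. Of the 93 uncalled probe sets of these genes, 73 had the sign of the called one. For DCP1A, an mRNA decapping factor, a probe set was 1.72 higher in AS (adjusted p = 4.845e-05) and the other was at -0.51 and did not pass (adjusted p = 0.730). For the aldehyde reductase AKR1A1 a probe set stood at -2.28 (adjusted p = 7.021e-04), whereas the other 2 stood at -0.28 and -0.43 without passing. A second ALDH1A3 probe set was at 0.58 and did not pass.

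PIK3R1, the regulatory subunit of PI3-kinase, had 7 tested probe sets, of which 2 passed at -1.78 and -0.76, and the one with the highest mean over all arrays, at -0.34, did not (adjusted p = 0.309). More uniform was PSMB8, an inducible subunit of the immunoproteasome, whose 7 probe sets were all higher in AS, between 0.49 and 1.43. Of these PSMB8 probe sets 1 passed (1.37 ± 0.18, adjusted p = 4.946e-06), with 7.68 and 7.76 in AS FP and 7.87 and 7.73 in AS FS, against 6.46 in DL FP and 6.21 and 6.44 in DL FS. One of 6 probe sets of the MHC class I gene SLA-3 passed, at -0.96, and the others ranged from -0.78 to 0.58; its near-identical relatives can share such probes.

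**Figure D2:**
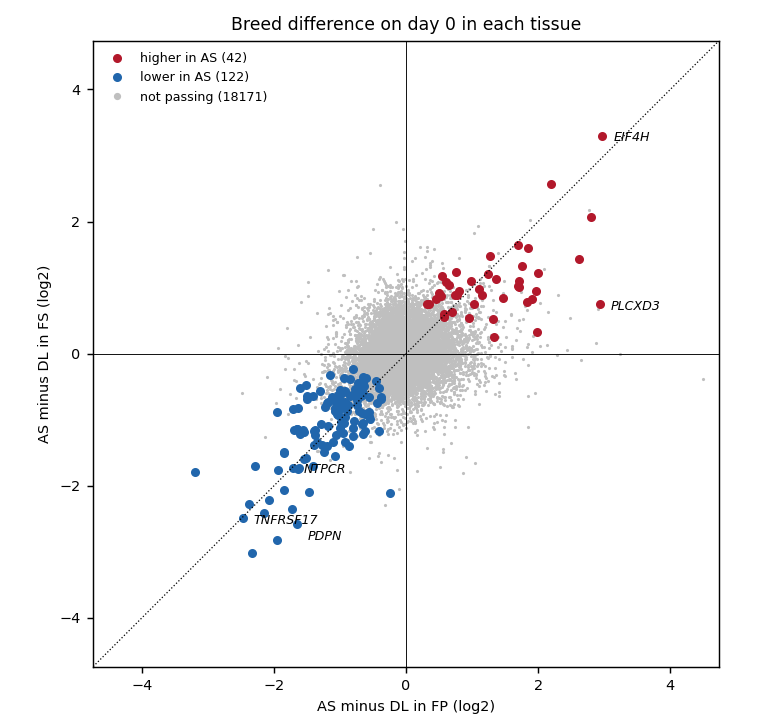
Breed difference (AS minus DL, log2) on day 0 in FP (horizontal) against FS (vertical), 1 point per tested probe set, with the 42 called higher in AS in red and the 122 called lower in blue. All 164 called probe sets, which were chosen by the mean of both differences, lie in the lower left or the upper right quadrant. Some of them, such as PLCXD3, lie well off the dotted line of equal difference.

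Taken within each tissue, 43 probe sets (0.235%) differed between the breeds in FP and 73 (0.398%) in FS. Of the 43, 41 were also called over both tissues, and of the 73, 60 were. Only the FS comparison had 2 arrays on each side, and 22 probe sets passed in FP and in FS each. No probe set passed the test of the interaction of breed and tissue (0 of 18335, 0%), although 965 had an unadjusted limma p under 0.05, so no breed difference passed as unequal between FP and FS. For comparison, 75 probe sets (0.409%) differed between FP and FS on day 0 over both breeds.

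Over the 7 arrays, breed accounted for 23.6% of the sum of squares of all tested probe sets after tissue, tissue for 17.1% after breed, and the replicate number for 25.1% after both. The interaction of breed and tissue took 13.3% after both. With so few arrays any split of them takes a sizeable share, and none of these shares was tested. A share of 58.2% was left after breed and tissue. Cultures with the same replicate number deviated in the same direction from their group means, as described with the processing.

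**Figure D3:**
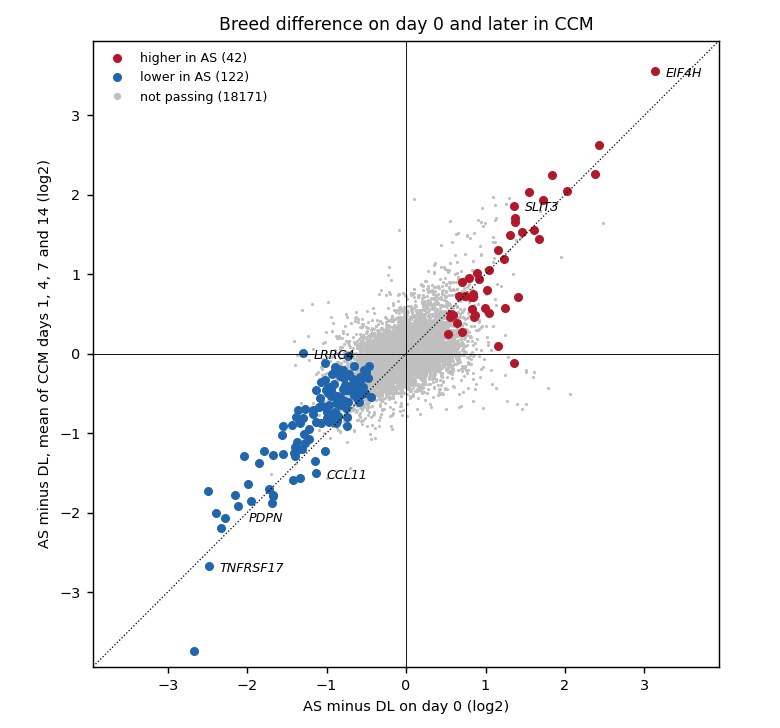
Breed difference (AS minus DL, log2) on day 0 (horizontal) against the mean breed difference on days 1, 4, 7 and 14 in CCM (vertical), 1 point per tested probe set, with day 0 calls higher in AS in red and lower in blue. Of the 164 calls, 162 keep their sign in CCM, TNFRSF17 (-2.48 on day 0) stays far below 0, and LRRC4 (-1.30 on day 0) lies at about 0 in CCM.

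The day 0 differences were then followed in the later cultures, which came from the same pools but were hybridised to other arrays. In CCM, 84, 93, 90 and 86 of the 164 probe sets passed in the same direction on days 1, 4, 7 and 14, when 215 (1.17%), 569 (3.1%), 211 (1.15%) and 300 (1.64%) of all probe sets were called. In AIM the numbers were 87, 77, 82 and 91, beside 422 (2.3%), 870 (4.75%), 1621 (8.84%) and 746 (4.07%) called in all. In the opposite direction, 1 day 0 call passed on day 4 and 1 on day 7 in AIM, and none did on the other days.

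Altogether 124 of the 164 probe sets passed again on at least 1 CCM day and 47 on all 4 CCM days, while 40 passed on none. In AIM, 122 passed on at least 1 day and 48 on all 4. The sign was the same on all 4 CCM days in 152 of the 164, against 20.8% of all tested probe sets counted against their own day 0 sign, and on all 4 AIM days in 136, against 19.7%. The mean CCM difference was 0.79 of the day 0 difference in the median of the calls, and the mean AIM difference was 0.63 of it.

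**Figure D4:**
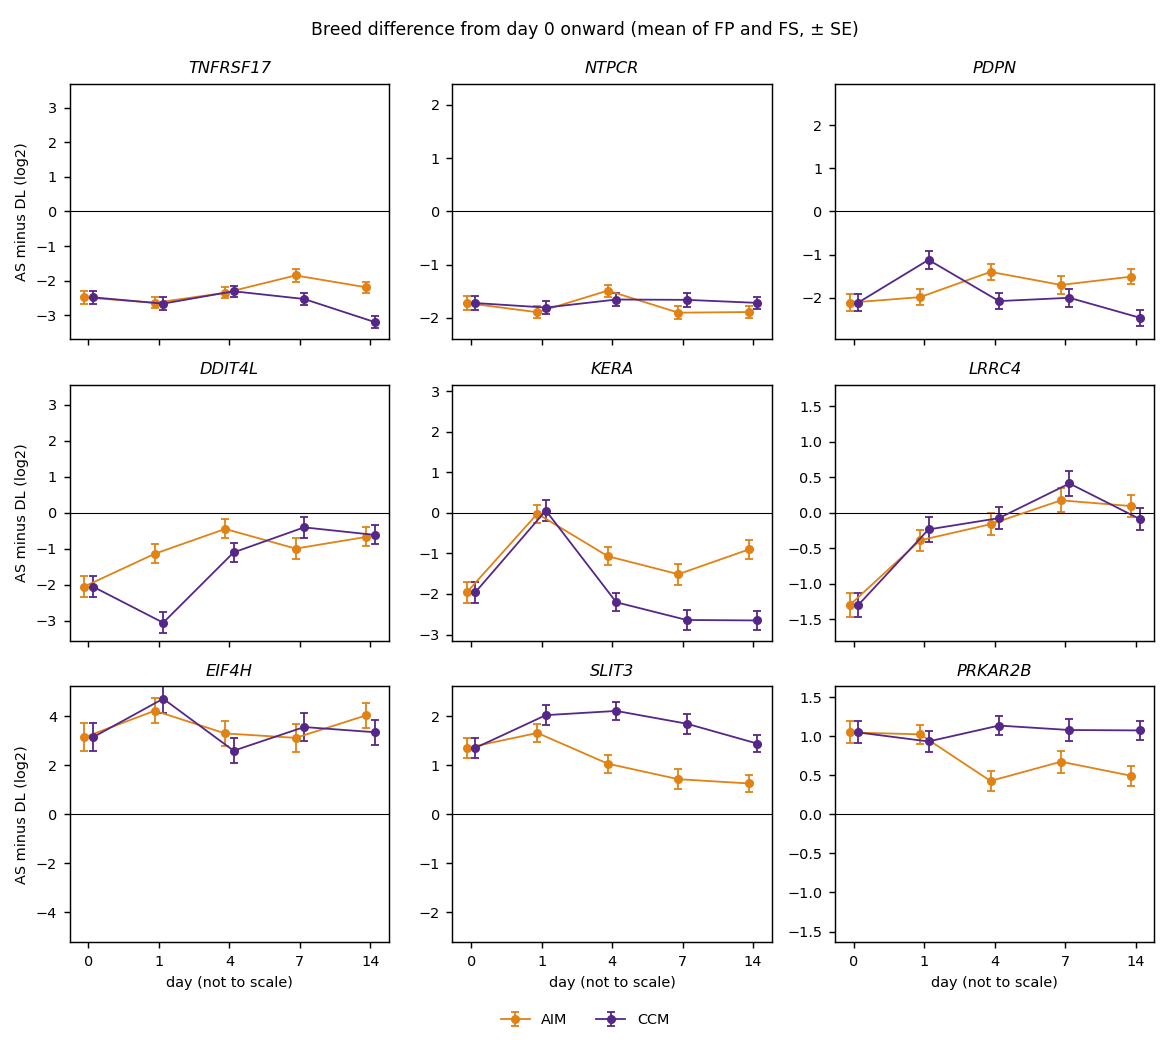
Breed difference (AS minus DL, log2, mean of FP and FS ± SE) for 9 genes over the days of culture (horizontal, not to scale), in AIM (orange) and CCM (purple) from a shared day 0 value. TNFRSF17, NTPCR, PDPN and EIF4H stay on the same side of 0 throughout, KERA is at 0.06 on day 1 in CCM and at -2.20 on day 4, and LRRC4 (-1.30 on day 0) is near 0 on later days.

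Some 34 probe sets passed in the same direction on all 4 days in both media, 9 of them higher and 25 lower in AS. They represented 20 genes and 12 probe sets without a name. Chosen after their values were seen, genes among these 20 were EIF4H, DCP1A, STK39 and LDB2, which were higher in AS, and MLEC, PCCB, GNA14, RBM17, TMEM30B, NT5E, TMEM225B, MPP6, NUDT7, ND5, NTPCR, GRID1, PDPN, AKR1A1 and TNFRSF17, which were lower. For TNFRSF17 the later differences ran from -2.31 to -3.20 in CCM and from -1.85 to -2.64 in AIM, and for NTPCR from -1.65 to -1.81 in CCM and from -1.49 to -1.90 in AIM. EIF4H ranged from 2.59 to 4.71 in CCM and from 3.12 to 4.22 in AIM. TMEM30B rested on 1 of 3 tested probe sets, at -0.95 on day 0, with the others at -0.05 and 0.09.

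Other leading genes varied more between days. DDIT4L was at -3.05 on day 1 in CCM and at -0.40 on day 7, when it no longer passed (adjusted p = 0.645). KERA did not pass on day 1 in CCM (0.06, adjusted p = 0.974) or in AIM (-0.02), and was at -2.20, -2.64 and -2.65 on days 4, 7 and 14 in CCM. KIT passed on 3 CCM days with a mean difference of -1.25, whereas it passed on no AIM day, with a mean of -0.33. GRIN3A likewise passed on all 4 CCM days (mean 1.50) and on 1 AIM day (mean 0.44), though the change between media was not tested here.

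Only 1 probe set, 0.00545% of those tested, had a day 0 difference that passed as different from its mean over the CCM days, beside 997 at an unadjusted limma p under 0.05. It belonged to LRRC4, a leucine-rich repeat protein of synaptic membranes that binds netrin-G. Its values were 4.26 and 3.72 in AS FP and 4.45 and 4.51 in AS FS, against 5.36 in DL FP and 5.82 and 5.59 in DL FS (difference -1.30 ± 0.17, adjusted p = 3.46e-06). The breed difference of LRRC4 in CCM was -0.23, -0.07, 0.41 and -0.09 on days 1, 4, 7 and 14, which left -1.31 between day 0 and the CCM mean. A second LRRC4 probe set was at -0.84 on day 0 and did not pass (adjusted p = 0.243).

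**Figure D5:**
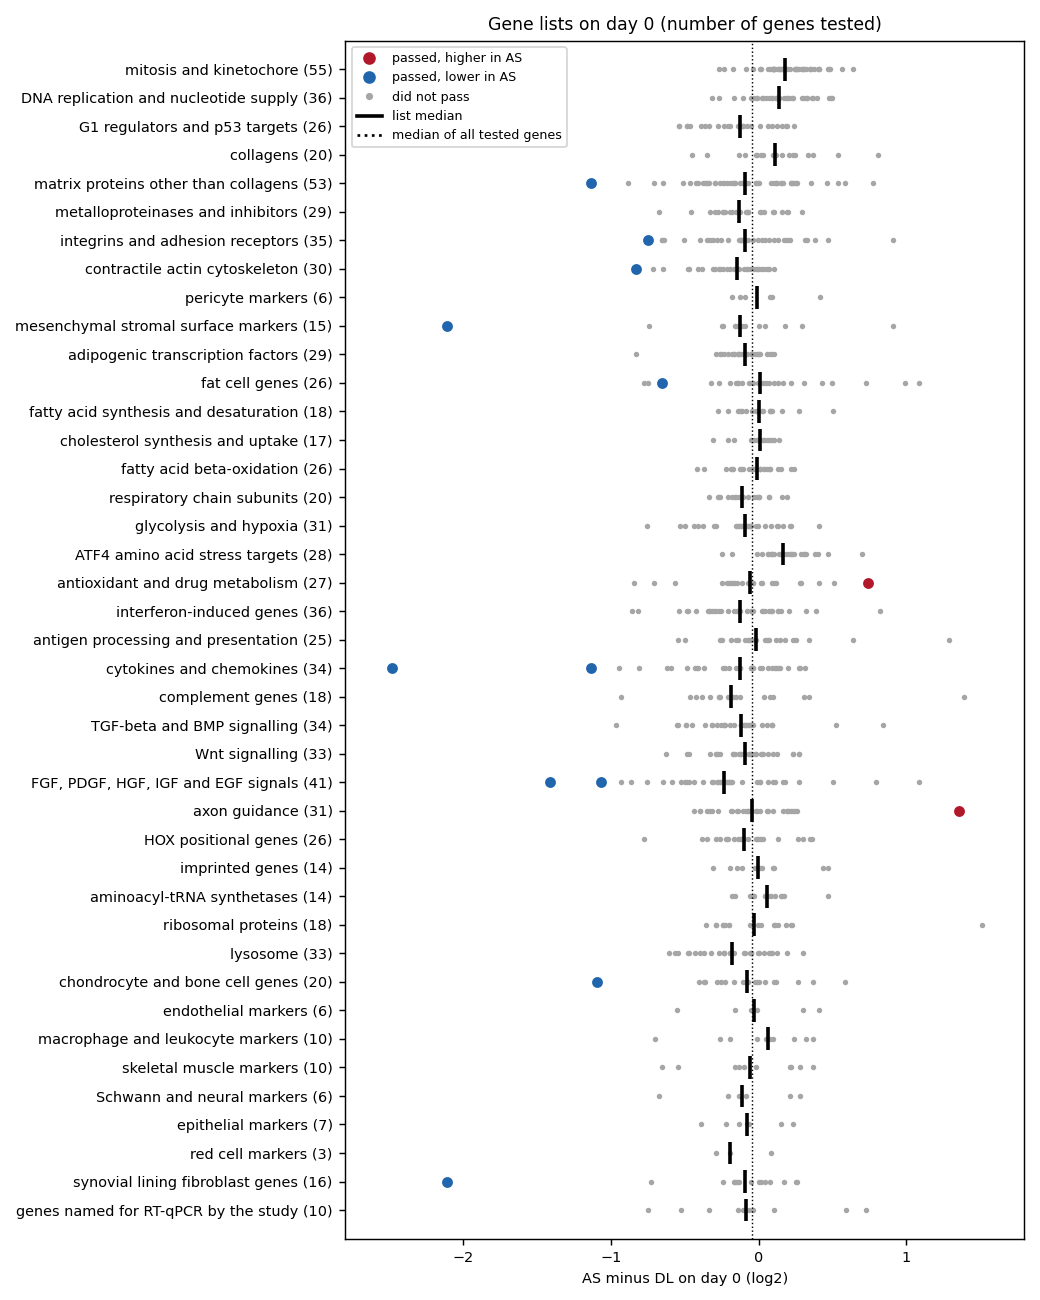
Breed difference on day 0 (AS minus DL, log2, horizontal) for the tested genes of 41 gene lists, with genes passing higher in AS in red, those passing lower in blue, the rest in grey, a bar at each list median and a dotted line at the median of all tested genes (-0.04). Each of 11 lists holds 1 or 2 passing genes, and the mitosis list lies mostly to the right of 0 without any passing member.

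Gene lists for pathways and cell types were then read by counts. Of 41 lists, 11 held a passing gene and 30 held none, and of 924 listed genes that were tested 12 passed. The median breed difference over all tested genes was -0.04, and 57.9% of genes were lower in AS. Each array centred on its own median moved that value to -0.01, and so no direction of a list is read from medians of this size.

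Growth factor signalling held the lowest list median. Of 41 genes of FGF, PDGF, HGF, IGF and EGF signals, KIT and IGFBP2 passed lower in AS and none passed higher. In this list 30 genes were below 0 and the median was -0.23, against 0.03 over the CCM days. Among 34 TGF-beta and BMP signalling genes none passed, 27 were below 0 and the median was -0.12, against 0.06 over the CCM days. GREM1, a BMP antagonist, was at -0.97 and BMPER, a BMP-binding regulator, at 0.84 (adjusted p = 0.0183). No Wnt gene passed by its probe set of highest mean, where the receptor FZD4 was at -0.63 (adjusted p = 0.0106), while a second FZD4 probe set passed at -0.85.

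The matrix lists were mixed. None of 20 collagen genes passed, 14 were above 0 and the median was 0.11, with COL24A1 at 0.81 (adjusted p = 0.0887) and COL4A1, of basement membranes, at 0.54 (adjusted p = 0.142). Of 53 other matrix proteins LUM alone passed, and the median was -0.09. None of 29 metalloproteinases and their inhibitors passed, with 20 below 0 and a median of -0.13. The contractile list had SYNPO2, an actin-bundling protein, as its single passing gene of 30 (-0.83 ± 0.18, adjusted p = 0.00624, 0.0162 with the replicate number of the day 0 arrays as a further block, and 0.0125 to 0.129 without any array other than the second DL FS array), 24 genes below 0, and medians of -0.34 in FP and 0.09 in FS.

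Fat cell genes are given beside the 0.948% of all tested genes that passed. Of 26 fat cell genes 13 were above and 13 below 0, and only AQP3, a glycerol and water channel, passed (-0.66 ± 0.15, adjusted p = 0.00835, 0.0156 with the replicate number as a further block, and 0.0199 to 0.199 without any 1 array). AQP3 averaged 3.75 in AS and 4.41 in DL, and AS was within 1 log2 unit of the background controls. Adiponectin (ADIPOQ) averaged 6.27 ± 0.47 in AS (n = 4) and 5.51 ± 0.17 in DL (n = 3, SD), and its difference of 0.73 ± 0.47 (SE) did not pass (adjusted p = 0.633). Its other 5 probe sets stood between -0.03 and 2.48 and did not pass either, although in 2 of them, at 1.95 (adjusted p = 0.142) and 2.48 (adjusted p = 0.119), the AS arrays lay above all DL arrays. FABP4, a fatty acid carrier, was at -0.75 ± 0.59 (adjusted p = 0.735), and its AS arrays (3.64 to 5.38) overlapped those of DL (4.14 to 6.52). Of the 29 adipogenic transcription factors none passed, with PPARG at -0.14 ± 0.25, CEBPA at 0.10 ± 0.17 and GATA3, which restrains fat cell formation in mice, at -0.83 (adjusted p = 0.0183).

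None of the 10 genes that the study had picked for RT-qPCR passed by the probe set of highest mean, and since they were picked by the study this is no independent check. Besides ADIPOQ, FABP4, PPARG and CEBPA they gave -0.53 for FGF2 (adjusted p = 0.133), 0.59 for NANOG (adjusted p = 0.138), -0.34 for PIK3R1, -0.04 for PIK3CA, -0.06 for PPP3CA and -0.11 for ALPL. Lists of fatty acid synthesis (18 genes, median 0.002), cholesterol synthesis and uptake (17, 0.01), beta-oxidation (26, -0.01) and glycolysis and hypoxia (31, -0.09) had no passing gene. The respiratory chain list had none among 20 nuclear genes, at a median of -0.11.

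Proliferation genes were mostly above 0 without passing. Of 55 genes of mitosis and the kinetochore 50 were above 0 with a median of 0.18, and of 36 genes of DNA replication 28 were above 0 with a median of 0.14. In FS the medians were 0.60 and 0.50, in FP they were -0.19 and -0.16, and over the CCM days they were -0.04 and -0.06. The mean level of the mitosis list was 6.65 and 6.31 on the AS FP arrays and 6.75 and 6.34 on the AS FS arrays, against 6.69 on the DL FP array and 6.26 and 5.61 on the DL FS arrays. The second DL FS array was thus the lowest of the 7, and in each group with 2 arrays the culture numbered 1 exceeded the culture numbered 2. The part of this difference between cultures in the other gene lists was not tested.

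No gene passed in the lists of amino acid stress targets and lysosomal genes. Of 28 targets of the amino acid stress factor ATF4, 25 were above 0 with a median of 0.16 (-0.01 in FP and 0.33 in FS), and STC2, a secreted stanniocalcin, was at 0.70 (adjusted p = 0.0380). Of 33 lysosomal genes 25 were below 0 with a median of -0.18 (-0.18 in FP and -0.19 in FS), against -0.006 over the CCM days. LGMN, the asparaginyl protease legumain, was at -0.61 (adjusted p = 0.0119) and the cholesterol transfer protein NPC2 at -0.48 (adjusted p = 0.0146). Interferon-induced genes (36 tested, median -0.13) and complement genes (18, median -0.19) held no passing gene, although complement C7 was at 1.39 (adjusted p = 0.0124), with 2.15 in FP and 0.63 in FS.

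Of 19 mesenchymal stromal surface markers on the array, 16 exceeded the background controls by more than 1 log2 unit. ALCAM, LEPR and a probe set of NT5E did not. CD44 was at a mean of 8.20 in AS and 7.85 in DL, the integrin chain ITGB1 at 10.92 in AS and 11.00 in DL, THY1 at 10.42 in AS and 10.69 in DL and endoglin (ENG) at 8.48 in AS and 8.75 in DL, and none of these 4 passed. NT5E, the ectonucleotidase CD73, was lower in AS in 1 of 2 probe sets named from the study's tables (-1.02, adjusted p = 0.00944), with the other at -0.59 (adjusted p = 0.0643). A further NT5E probe set lay below the background controls, at 2.94 in AS and 2.80 in DL, and was not tested.

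Marker lists of other cell types were mixed. Of the genes on the array, 8 of 18 leukocyte, 9 of 17 endothelial, 8 of 14 epithelial, 10 of 20 skeletal muscle and 19 of 29 fat cell genes exceeded the background controls by more than 1 log2 unit. The array medians lay less than 1 log2 unit above these controls, and the share of all probe sets past the mark was not counted. The presence of a cell type is therefore not read from these counts. Among the leukocyte genes above them were CD86, a costimulatory molecule (7.89 in AS and 8.62 in DL), and AIF1, a calcium-binding protein of macrophages (6.42 in AS and 6.04 in DL). The summed intensity of the leukocyte list ran from 593 to 786.8 on AS arrays and from 753 to 901.9 on DL arrays, and its part in the breed difference was not tested. Several defining markers were at or below the controls in both breeds, namely the leukocyte antigen PTPRC (1.67 in AS and 1.50 in DL), the macrophage receptor CD163 (2.67 in AS and 2.53 in DL), the epithelial EPCAM (2.20 in AS and 2.28 in DL) and CDH1 (2.46 in AS and 2.62 in DL), the endothelial KDR (2.53 in AS and 2.55 in DL), the muscle regulator MYOD1 (2.66 in AS and 2.41 in DL) and leptin (LEP, 2.88 in AS and 2.84 in DL). The endothelial PECAM1 was above them, at 5.83 in AS and 6.43 in DL, and did not pass (-0.56, adjusted p = 0.0909). No gene of the lists of endothelial (6 tested), leukocyte (10), skeletal muscle (10), Schwann and neural (6), epithelial (7), pericyte (6) and red cell markers (3) passed. Of 20 chondrocyte and bone cell genes CHAD alone passed.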

How the data were processed

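RNA of porcine SMSCs was hybridised by the authors to Affymetrix Snowball arrays. The deposited values are log2 intensities per probe set, background-corrected, quantile-normalised and summarised by the authors with RMA in Expression Console. The submitters' processing notes also name GCOS 1.1.1. They were used as deposited. Of 47845 probe sets, 123 controls were removed, and 18335 were tested that had an SD over 0.25 and exceeded the array median in at least 8 of 72 arrays. Names came from the platform annotation, updated through RefSeq symbols, and for 867 tested probe sets without one from the study's additional tables, of which no value was used. Array number and signal over background, not read depth, limit the precision.

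With limma 3.58.1 (R 4.3.3, statmod 1.5.0), 36 group means were fitted to 68 arrays, with culture line (breed, tissue and replicate number) as a random block and Benjamini-Hochberg adjustment within each comparison at 0.01. A total of 4 arrays whose labels disagree with the study's sample tables were left out, among them DL FP day 0 replicate 2. That array correlated at 0.86 to 0.87 with DL day 1 CCM arrays and at 0.19 to 0.44 with the 7 day 0 arrays, over probe-set-centred values, against 0.59 to 0.78 among those 7. The DL FP group thus rests on 1 array and is assumed to vary like the others.

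Day 0 cultures with the same replicate number deviated together from their group means (correlations 0.32, 0.26 and 0.24). The fit with this number as a block is therefore given where it changes the call of a gene named by rule.

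Genes were named by rule: the 12 largest differences each way among genes passing with the same sign in FP and FS, by the tested probe set brightest over all arrays. In lists, up to 4 passing genes or the 2 of smallest p were named, with the RT-qPCR genes and cell markers, and genes passing in the day 0 against CCM test. Other genes, such as AKR1A1, PSMB8, GSN, DCP1A, PIK3R1, SLA-3, NT5E, PCCB, NUDT7, FLRT3, ADORA2B, LPAR6, HRH1, GREM1 and the probe set of FZD4, were chosen after their values were seen. The comparison and the gene lists were chosen with earlier results of these data known. The fit was tested on simulated data. Alternatives were the filter, the scaling, the block, the arrays used, 1 value per pool, gene means and leaving out each day 0 array.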

Additional observations from a re-analysis of the deposited data

Results flagged for a closer look

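On the AS arrays, the second AS FS culture stood apart from the other 3 in 2 of 105 probe sets looked at, where chance marks about 1 in 20 groups. FGF2 was 7.517 there, against 8.18 and 8.10 on the AS FP arrays and 8.16 on the first AS FS array, and the growth factor's breed difference of -0.53 did not pass. CEBPA was 5.767 there, against 6.42 and 6.36 on the AS FP arrays and 6.42 on the first AS FS array, and its breed difference was 0.10. For LRRC4 the breed difference on day 0 minus its mean over the CCM days was -1.306, which passed the limma test of that difference for 1 of its 2 probe sets.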

How the results depend on the processing

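The count of 164 probe sets on day 0 was 107 with all 72 arrays under their deposited labels, of which 86 were among the 164. It was 42 with 1 value per pool, 20 when the 7 day 0 arrays alone were fitted with breed and tissue, and 22 when the replicate number was added to that fit as a block, with 34, 18 and 20 among the 164. Leaving out each day 0 array gave 73 (without the DL FP array) to 147, with 100 without the second AS FS array. With the replicate number as a block in place of the culture line the count was 171, and with a replicate block on the day 0 arrays added it was 148. Of these 148, 130 were among the 164. Among the 105 genes named by rule, that added block ended the calls of PDE1C, ZSCAN4, SYNPO2, AQP3 and CCL11 only. Called genes outside the 105, such as ABCG2, NT5E and FBXO32, were not followed singly through the alternatives. Fits with other filters, scalings, no block or a moderated trend gave 127 to 171, and centring each array or quantile normalisation split the calls as 47 higher and 102 lower or 47 higher and 94 lower, against 42 and 122. The FS count of 73 was 18 with all 72 arrays, and the single probe set that differed between day 0 and the CCM days became 0, beside 761 at an unadjusted limma p under 0.05. The interaction of breed and tissue had 0 calls in every fit made of it. Over the 105 genes named by rule and their alternatives, 1879 of 2076 results kept direction and side of the threshold, 162 lost the call, 21 gained it and 14 turned sign, all 14 for genes that did not pass in any of these fits. With all 72 arrays ANPEP was at 0.064, MYLIP at 0.0875, DHCR7 at 0.061 and PPARG at 0.0070, and after quantile normalisation PIK3CA was at 0.012 and PPP3CA at 0.0036. Leaving out single arrays moved ANPEP between -0.18 and 0.039, PPARG between -0.29 and 0.0090, CEBPA between -0.052 and 0.26, PIK3CA between -0.10 and 0.024, PPP3CA between -0.11 and 0.0067 and ALPL between -0.23 and 0.012. The number of arrays, with 1 for DL FP, and signals within 1 log2 unit of the background controls limit what can be read, in AS for TNFRSF17, KERA, DDIT4L and AQP3 and in DL for PLCXD3, EIF4H, WDR17, DLGAP2, ZSCAN4, TLL1 and CELA2A.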

Other observations

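Further called genes, chosen after their values were seen, lay outside the groups described so far. SAMHD1, a dNTP hydrolase with antiviral activity, was lower in AS in 2 probe sets (-0.52 and -0.53), and LGALS8, a galectin that binds cell surface sugars, was lower in 3 (-0.61, -0.71 and -0.77). FBXO32, the muscle ubiquitin ligase subunit atrogin-1, was lower in AS (-1.01), as was the phosphatase DUSP10, which acts on p38 and JNK (-1.02). The glucose transporter SLC2A12 was lower in 2 probe sets (-0.98 and -1.08). ABCG2, an efflux transporter known from stem cells, was higher in AS at 0.84 in 1 of 5 probe sets (adjusted p = 0.00987), and the others were above 0 as well without passing. VHL, which marks HIF proteins for degradation, was lower in AS at -0.56. None of these was followed further.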
